A study of Rattus norvegicus with 12 samples.

Results

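The comparison concerned lungs of rats that had been given NaHS during exposure to cigarette smoke and lipopolysaccharide (LPS), set against lungs of rats with the same exposure and no NaHS. Members were the arrays whose treatment label was CS+LPS+NaHS (3 arrays) or CS+LPS (3 arrays), so 6 of the 12 arrays of the series were used directly. The other 6 arrays, 3 of unexposed Control rats and 3 of CS+LPS+PPG rats, entered the fit and served as references. All rats were male Sprague-Dawley rats aged 8 to 12 weeks. Rats of the CS+LPS group breathed smoke until day 30 and had 200 μl of LPS at 500 μg/ml instilled into the trachea on day 5 and day 19, and served as a model of COPD (chronic obstructive pulmonary disease). CS+LPS+NaHS rats had this exposure and were injected intraperitoneally with 14 μmol/kg NaHS before it. CS+LPS+PPG rats had the exposure and propargylglycine (PPG), and Control rats breathed room air. Lungs were taken 24 h after the last smoke, and RNA of a whole piece of the left upper lobe was measured, so airway, alveolar, vascular and immune cells were mixed in each sample. In such bulk RNA, fewer cells of a type and less RNA per cell cannot be told apart.

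NaHS is a salt that releases hydrogen sulfide (H2S) in water. H2S is a gas that cells also make themselves from cysteine and homocysteine, mainly with the enzymes cystathionine gamma-lyase (gene Cth), cystathionine beta-synthase (Cbs) and 3-mercaptopyruvate sulfurtransferase (Mpst), and that mitochondria oxidize, starting with Sqor. It is known to open potassium channels in vessel and airway smooth muscle, to modify cysteine residues of proteins and to act on inflammation and oxidative stress. PPG blocks CTH, so the NaHS and PPG groups differed in the direction in which H2S supply was changed. The question of the comparison was which lung genes differ when H2S is supplied during the exposure.

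Each RNA sample was read on a single-colour Agilent rat array of 62976 spots, and values are log2 signals after each array was aligned at its 75th percentile. Before alignment the 75th percentile was 2310 to 2710.4 intensity units in the NaHS arrays and 2351 to 3261.5 in the CS+LPS arrays, 69.0% to 75.5% and 69.1% to 74.3% of probes were well above background, and 0 probes were saturated. The lung label was borne out by the markers: Sftpc and Sftpb of alveolar type 2 cells, Scgb1a1 of club cells and Ager of alveolar type 1 cells were all bright, with mean log2 signals of 18.32, 17.48, 17.30 and 15.54 with NaHS and 18.39, 17.55, 17.23 and 15.37 in CS+LPS, and of the 7 tested markers of each alveolar cell type 0 were called between the groups (limma, 0 at unadjusted p under 0.05, 0 by the methods' t-test). The 3 NaHS arrays, the 3 PPG arrays and Control replicates 1 and 2 lay on slide 1, and the 3 CS+LPS arrays and Control replicate 3 on slide 2. Slide and NaHS can therefore be separated only through the Control arrays, and Control replicate 3 stood apart: its 75th percentile was 1229, its correlation with the other arrays was 0.936 to 0.957 against 0.982 to 0.987 between NaHS and CS+LPS arrays, and its summed signals of heart muscle and fat markers were the highest of the Control arrays (16.54 and 14.62, against 12.67 to 12.84 and 11.93 to 12.03). For called genes, and for genes that the study names, the estimate with slide as a block is given below wherever it changes the call or the sign or moves the difference by over 1.5 times. Context genes of the lists are mostly given without it.

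A probe was called when it differed at least 2-fold with an unadjusted limma p under 0.05. By this rule 363 of 21239 tested probes were called, 318 higher and 45 lower with NaHS, which is a background of 1.71% of all probes, and 127 probes passed a Benjamini-Hochberg adjusted p of 0.05. At any fold change, 2051 of the 21239 probes had an unadjusted limma p under 0.05. This is the background for the list counts at that p given below. After quantile normalization 254 were called and 74.4% of them were higher with NaHS, against 87.6% of the calls here. With 1 probe standing for each gene, 170 of 11331 genes were higher (a background of 1.5%) and 22 lower (0.194%), and 70 genes had an adjusted p under 0.05 (0.618%). The median log2 difference over all genes was -0.02. Among the called genes, 102 of the higher and 7 of the lower were well above background on all 6 arrays with no overlap between the groups. Of those above background on all 6 arrays, 69 and 5 were called in the same direction with slide as a block. That setting called 4220 of 21239 probes, against 363 here, so keeping a call in it is a weak filter. The share of all genes without overlap is not given. Lack of overlap between 3 and 3 arrays cannot by itself reach an exact permutation p below 0.1. Most of the called genes were dim. When genes were put into 4 bins of equal size by mean signal, 127 of the dimmest bin were higher and 17 lower (5.08% of the bin), while in the brightest bin 5 were higher and 1 was lower (0.212%). The 5 bright genes that rose were Pdia3 (1.13 on the log2 scale), Dpt (1.15), Ahnak (1.14), Ik (1.17) and Hnrnpa2b1 (1.63), and the 1 that fell was Cxcl3; these were picked out after their values were seen. With slide as a block Ahnak (1.42) and Cxcl3 were called, while Pdia3 (0.19), Dpt (0.20), Ik (0.87) and Hnrnpa2b1 (2.01) were not. In the dimmest bin the median difference between NaHS and CS+LPS was 0.11 (-0.03 after quantile normalization). There Control replicate 3, on slide 2, was above Control replicates 1 and 2 by a median of 0.34, while the CS+LPS arrays of slide 2 were below the NaHS arrays. That Control array is the only one on its slide and stood apart in other ways, so array and slide cannot be told apart. The part of slide and scaling in the dim calls was not tested.

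**Figure D1:**
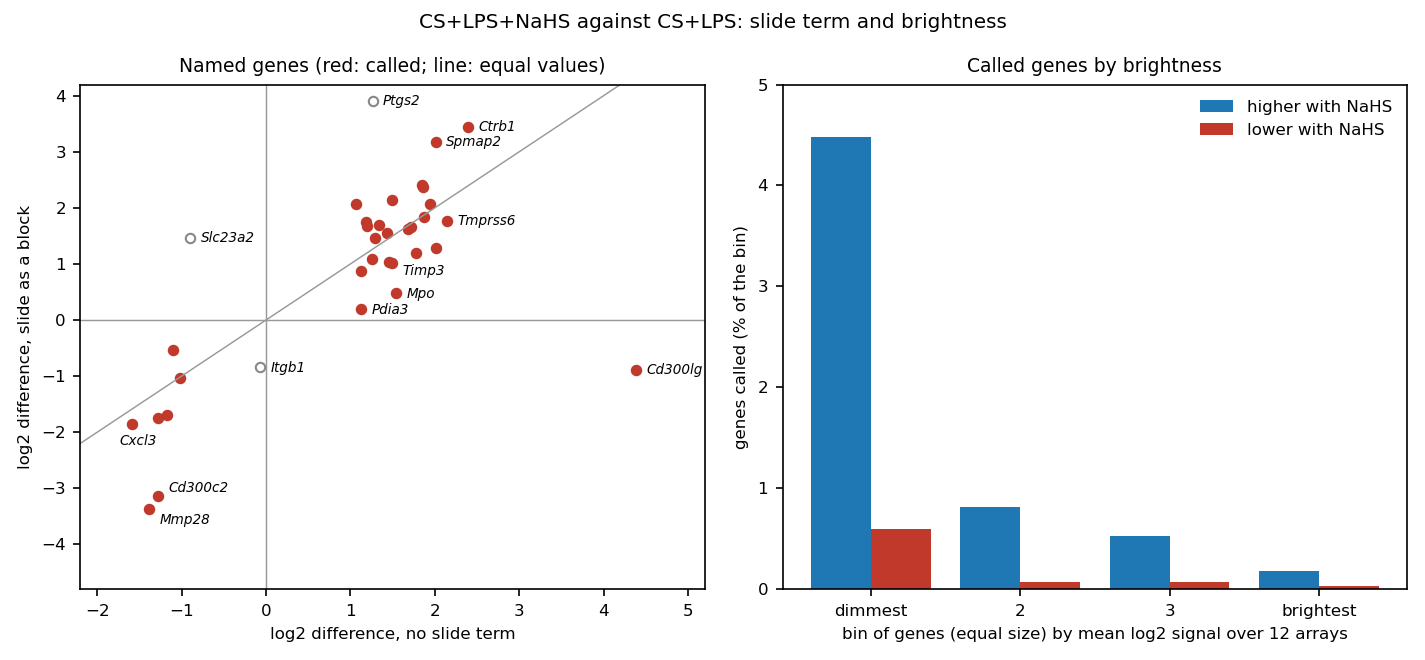
Left, log2 difference between CS+LPS+NaHS and CS+LPS for named genes without a slide term (x axis) and with slide as a block (y axis), with the line of equal values and called genes in red. Right, percent of genes called higher or lower with NaHS in 4 bins of genes of equal size by mean log2 signal over 12 arrays. Most named genes keep their side of 0 on the left, Cd300lg and Slc23a2 do not, and on the right the dimmest bin holds 127 of the 170 genes called higher.

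Among genes above background on all 6 arrays whose groups did not overlap, the largest rise after NaHS, apart from that of Cd300lg described below, was that of Ctrb1, which codes for chymotrypsinogen B, a digestive protease precursor of the exocrine pancreas (probe at chr19:41611386-41611445, minus strand, on the rat build of the array design, rn4). Its log2 signal was 11.32, 11.28 and 10.51 in the NaHS rats, 8.77, 8.67 and 8.51 in the CS+LPS rats, 9.39, 9.24 and 10.37 in the Control rats and 10.03 ± 0.90 (SD, n = 3) in the PPG rats. Every NaHS value lay above every CS+LPS value, and the CS+LPS values were the lowest of the 4 groups. The difference was 2.39 ± 0.43 (SE), a 5.24-fold rise with an adjusted p of 0.0381, and it was 3.44 with slide as a block. Of 12 pancreas markers 5 were bright enough to test, and beside Ctrb1 none was called. Cel differed by -0.54, Cela1 by -0.05 and Cpa1 by 0.24. The summed pancreas signal was 11.50 to 12.08 with NaHS and 10.99 to 11.23 in CS+LPS, and this gap came from Ctrb1.

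Tmprss6, which codes for matriptase-2, a membrane protease that restrains hepcidin and so acts on iron balance, rose 4.43-fold and was the gene with the smallest adjusted p (probe at chr7:116392625-116392684, minus strand). It read 8.50, 8.41 and 8.17 with NaHS, 5.90, 6.27 and 6.47 in CS+LPS, 7.93, 7.96 and 7.56 in Control and 8.48, 8.43 and 8.36 with PPG. The CS+LPS arrays were the low group, and the arrays of the other groups lay between 7.56 and 8.50. The difference was 2.15 ± 0.17 (adjusted p = 0.000823), 1.76 with slide as a block, and it was called in all 25 alternatives. The rest of the iron list did not move with it: Tmprss6 was the only called gene of 17, the list median was -0.00, the ferritin chains Fth1 and Ftl1 differed by 0.05 and 0.06, the transferrin receptor Tfrc by -0.11, ferroportin (Slc40a1) by -0.04 and transferrin (Tf) by -0.67 (adjusted p = 0.222). Hepcidin (Hamp), the hormone downstream of matriptase-2, differed by -0.42 ± 1.49.

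Further large rises had the same shape, with 3 low CS+LPS values below all others. Arid3a, an AT-rich DNA-binding factor known from B cells, read 9.25, 9.64 and 9.20 with NaHS and 7.41, 7.79 and 7.34 in CS+LPS, while Control lay at 8.97 to 9.59 and PPG at 9.09 to 9.33. Its difference was 1.85 ± 0.20 (adjusted p = 0.00327; 2.41 with slide as a block), although its dimmer probe differed by 0.70 and was not called. Zic2, a zinc-finger developmental factor, read 7.77 to 7.81 with NaHS and 5.84 to 6.35 in CS+LPS (1.78 ± 0.21, adjusted p = 0.00403). Ugt2b37, a glucuronosyltransferase, rose by 2.02 ± 0.33, Pgbd5, which derives from a transposase, by 1.94 ± 0.24, Spmap2, a sperm protein, by 2.01 ± 0.38, and the homeobox genes Hoxa9l and Rhox2 by 1.71 ± 0.17 and 1.29 ± 0.14. With slide as a block Ugt2b37 differed by 1.29 and Spmap2 by 3.18. After normexp background correction, Pgbd5 (0.98), Hoxa9l (0.92) and Rhox2 (0.76) were no longer called, and after quantile normalization with slide as a block neither were Zic2 (0.62), Ugt2b37 (0.60), Hoxa9l (0.94) and Rhox2 (0.91). In each of the 5 genes from Ugt2b37 to Rhox2 the NaHS and CS+LPS values did not overlap, and the NaHS arrays differed from the PPG arrays by between -0.43 and 0.20.

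Falls were fewer. Among genes above background on all 6 arrays whose groups did not overlap, the largest fall was that of Cxcl3, a CXC chemokine that draws neutrophils through the receptor CXCR2 (probe at chr14:18767637-18767696, minus strand). Its signal was 14.42, 14.03 and 14.23 with NaHS, 15.83, 15.93 and 15.70 in CS+LPS, 13.81, 13.79 and 13.54 in Control and 14.42, 15.98 and 14.89 with PPG. The 3 NaHS values lay below all CS+LPS values and above all Control values, and 1 PPG rat read as high as the CS+LPS rats. The difference was -1.59 ± 0.31, a 3.01-fold fall with an adjusted p of 0.0570, and -1.85 with slide as a block. It was called in all 25 alternatives, and its spots were among the bright ones of the array. Larger called falls, named after their values were seen, lay in dimmer genes that were not well above background on every NaHS array or whose groups overlapped. LOC100361909 differed by -2.60 (-3.89 with slide as a block), Dnase2b by -2.44 (0.07), Ephb1 by -2.16 (-1.61), LOC691725 by -1.73 (-0.07), Rnase17 by -1.68 (-2.55), LOC690020 by -1.66 (-2.91) and Rnase3 by -1.59 (-2.40). Of these 7 only LOC100361909 and LOC690020 were called with slide as a block.

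The other falls above background on all 6 arrays were Mmp28, Cd300c2, Tnfrsf17, Lyzl6, Ube1y1 and RGD1565161. Tnfrsf17 codes for BCMA, a survival receptor of plasma cells, and read 9.02, 8.20 and 7.92 with NaHS and 9.11, 9.90 and 9.97 in CS+LPS. It fell by 1.28 ± 0.36 (adjusted p = 0.184; -1.76 with slide as a block), and the gap between the closest NaHS and CS+LPS values was small. The 7 tested B cell markers did not share this direction (limma, 0 called, 0 at unadjusted p under 0.05, 0 by the methods' t-test, median 0.17). Lyzl6, a lysozyme-like gene, fell by 1.17 ± 0.41, Ube1y1, a Y-linked ubiquitin-activating enzyme, by 1.10 ± 0.32 and RGD1565161 by 1.01 ± 0.34. With slide as a block Ube1y1 (-0.54) and RGD1565161 (-1.03) were not called. Without CS+LPS replicate 3 Lyzl6 differed by -0.74 and RGD1565161 by -0.76, without NaHS replicate 1 RGD1565161 differed by -0.62, and without CS+LPS replicate 1 Ube1y1 differed by -0.92, so none of these 3 calls held in every subset.

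**Figure D2:**
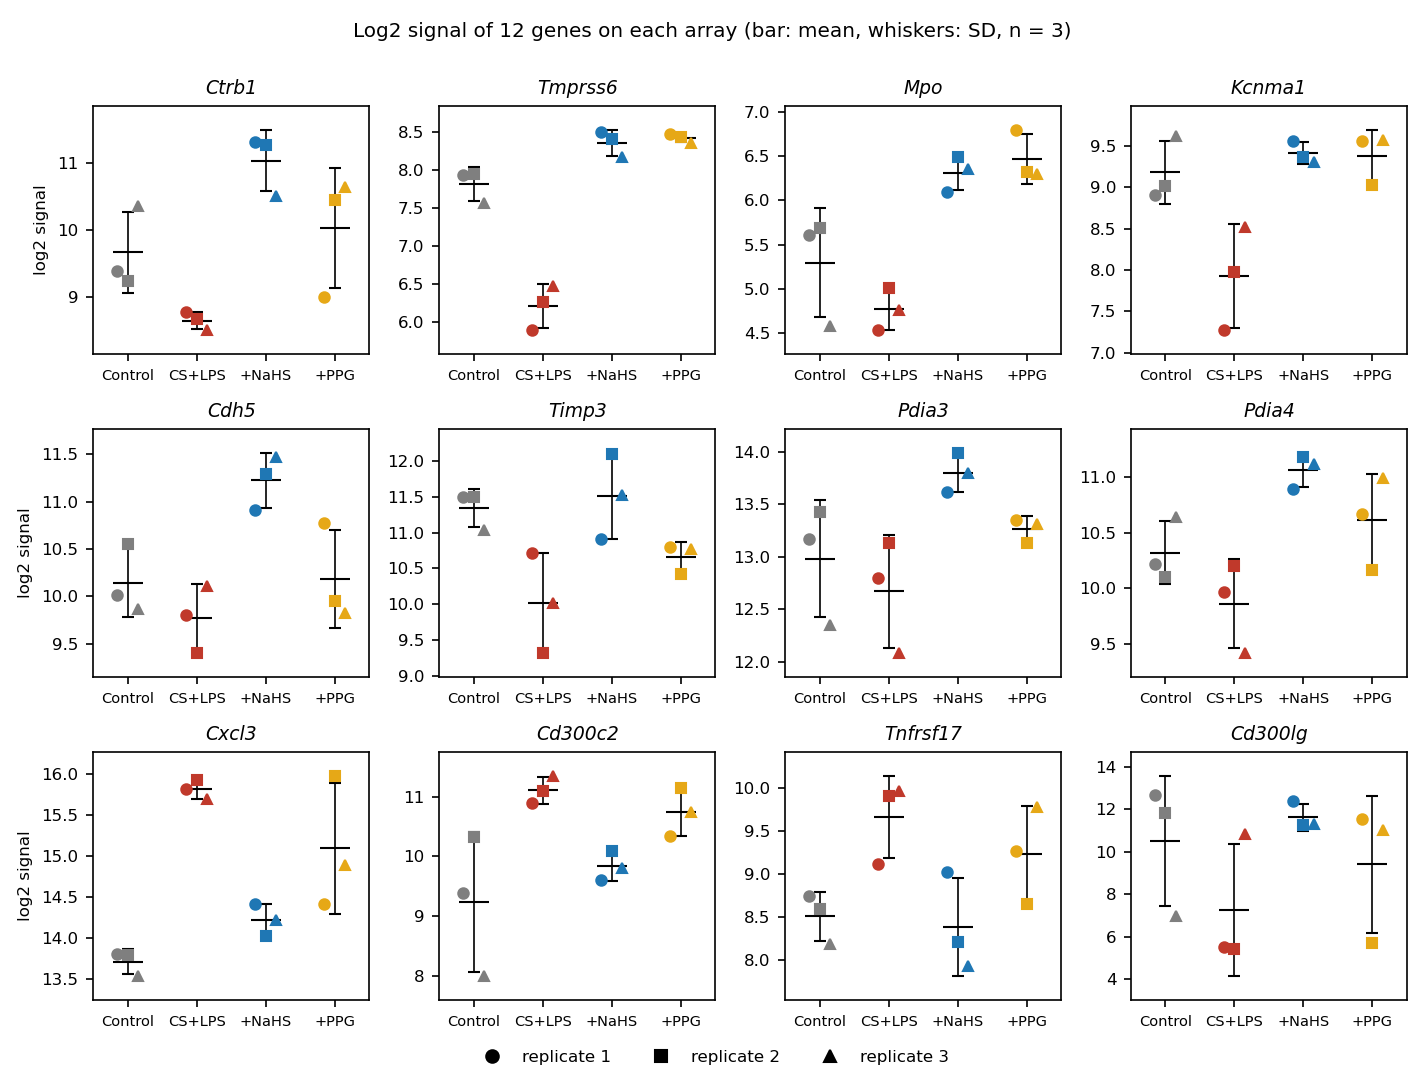
Log2 signal (y axis) of 12 genes on each array, by group on the x axis (Control, CS+LPS, and CS+LPS with NaHS or PPG), with replicates 1 to 3 as separate symbols, the mean as a bar and the SD as whiskers (n = 3). Tmprss6 at 8.17 to 8.50 with NaHS lies above its CS+LPS values of 5.90 to 6.47, and Cxcl3 at 14.03 to 14.42 lies below its CS+LPS values of 15.70 to 15.93.

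Cxcl3 was the only member of its own family that was called. Of 9 tested neutrophil-attracting chemokines, receptors and growth factors 1 fell and 0 rose, and the list median was 0.01. Cxcl1 and Cxcl2, which act on the same receptor, differed by 0.27 ± 0.26 and -0.11 ± 0.31, the receptors Cxcr1 and Cxcr2 by -0.20 and -0.14, and the granulocyte growth factor Csf3 by 0.01. Among chemokines of monocytes and T cells 0 of 19 were called (limma, 1 at unadjusted p under 0.05, 0 by the methods' t-test), with a median of -0.06. Ccl2, the main monocyte attractant, differed by -0.74 ± 0.51 and Ccl21, which guides lymphocytes along lymph vessels, by -0.73 ± 0.33. In the list of IL-1, TNF, IL-6 and their regulators 0 of 11 were called (0 at unadjusted p under 0.05, 0 by the methods' t-test). Il1b differed by -0.46 ± 0.28, Tnf by -0.01 ± 0.25 and the IL-1 antagonist Il1rn by -0.16 ± 0.22.

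Mpo, which codes for myeloperoxidase, the oxidant-forming enzyme of neutrophil granules, was higher with NaHS. Its signal was low throughout, at 6.10, 6.49 and 6.35 with NaHS, 4.54, 5.01 and 4.77 in CS+LPS, 5.61, 5.68 and 4.58 in Control and 6.79, 6.32 and 6.29 with PPG. The Control arrays of slide 1 were above the Control array of slide 2, as the NaHS arrays were above the CS+LPS arrays. The difference of 1.54 ± 0.28 (adjusted p = 0.0396) was 0.47 and not called with slide as a block, and -0.57 when quantile normalization was used as well. The other granule transcripts stayed near 0: S100a8 differed by 0.11, S100a9 by -0.06, Lcn2 by 0.06, Camp by -0.35 and Prtn3 by 0.59 ± 0.63, and 1 of 10 was called. Of 8 neutrophil markers 0 were called (limma, 0 at unadjusted p under 0.05, 0 by the methods' t-test, median 0.02).

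The CD300 receptors, paired immune receptors of myeloid cells, moved both ways, and 2 of 4 tested were called. Cd300c2 read 9.61, 10.09 and 9.80 with NaHS, 10.90, 11.09 and 11.35 in CS+LPS, 9.39, 10.33 and 7.99 in Control and 10.35, 11.14 and 10.75 with PPG. It fell by 1.28 ± 0.46 (adjusted p = 0.342; -3.14 with slide as a block), with no overlap between NaHS and CS+LPS, and its unadjusted call was lost without CS+LPS replicate 3 or without NaHS replicate 1 (-1.16 in each case). Cd300lg, which marks capillary and venular endothelium and binds lipids and lymphocytes, had the largest fitted difference of all genes above background on the 6 arrays and the widest spread. It read 12.37, 11.24 and 11.30 with NaHS, 5.50, 5.42 and 10.84 in CS+LPS, 12.66, 11.84 and 6.98 in Control, and 11.53, 5.68 and 11.02 with PPG. Arrays fell into a high and a low state within 3 of the 4 groups, so the fitted 4.38 ± 1.93 (adjusted p = 0.491) rested on which rats were in which state. With slide as a block the sign turned to -0.89, the call was lost without CS+LPS replicate 1 or 2, any single NaHS replicate or PPG replicate 3 (3.46 to 4.58), and the dimmer probe of the gene gave 2.16 (called, adjusted p = 0.366; 0.68 and not called with slide as a block).

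**Figure D3:**
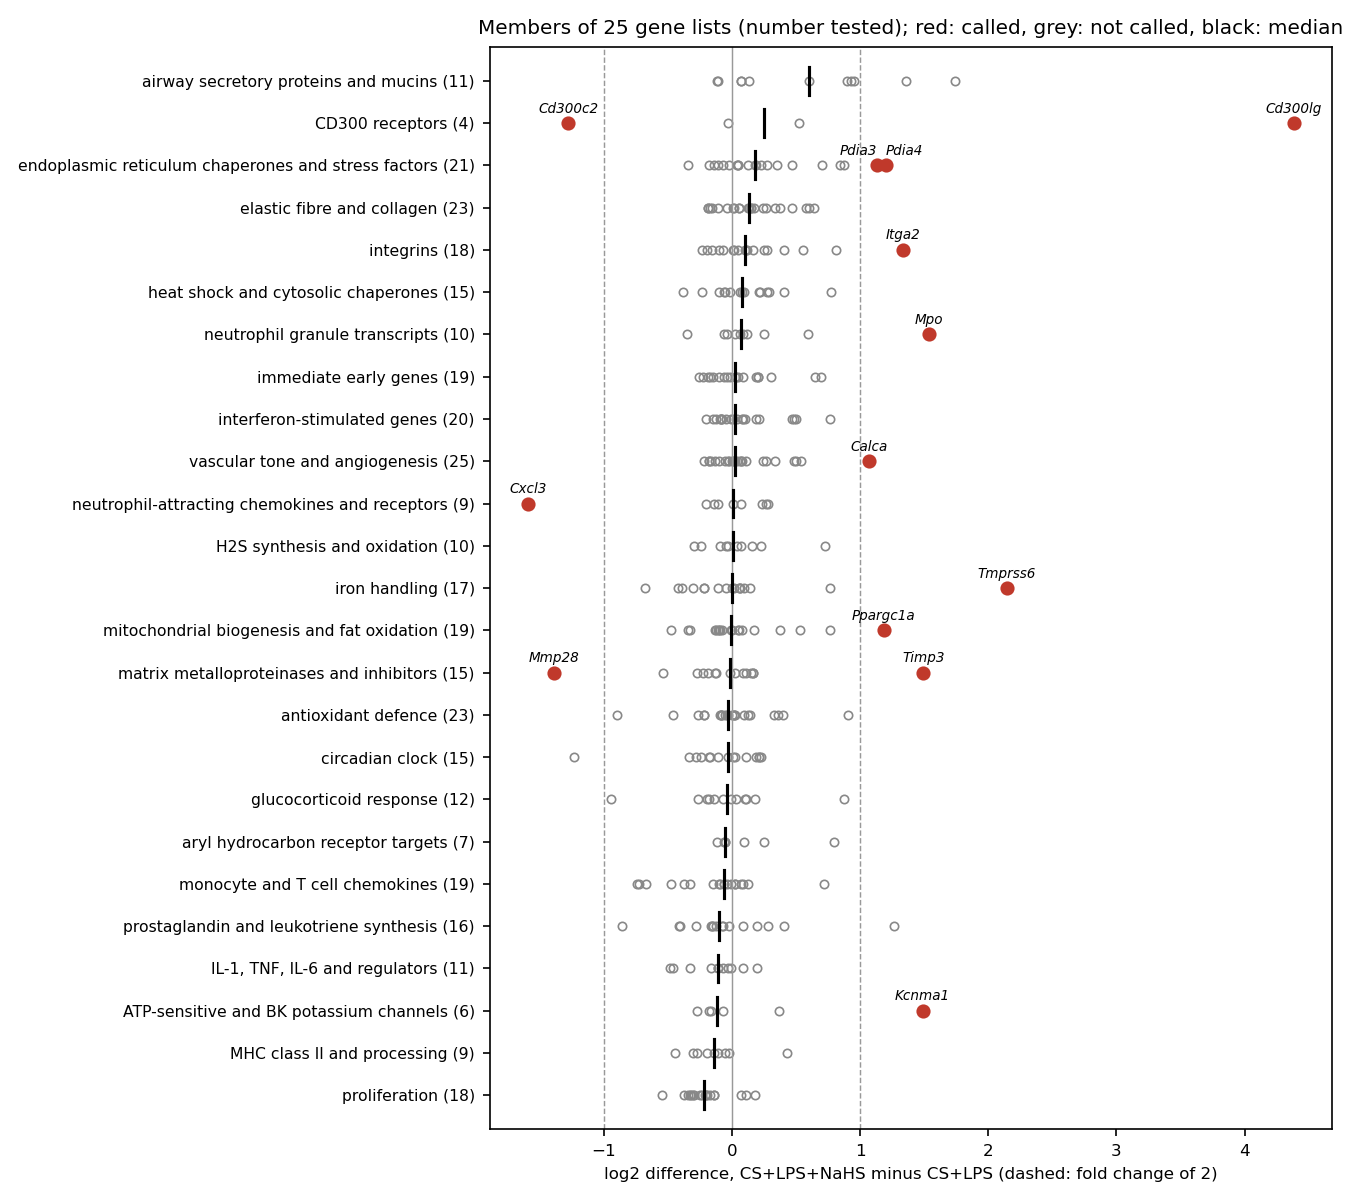
Log2 difference between CS+LPS+NaHS and CS+LPS (x axis) for each tested gene of 25 lists (y axis, number tested in brackets); red points were called and carry their symbol, black ticks are list medians and dashed lines mark a 2-fold difference. No list holds more than 2 called genes, and the airway secretory list has the highest median (0.60) and the proliferation list the lowest (-0.22).

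The study's text for this comparison picked out genes of oxidative stress, apoptosis and inflammation on these same arrays, so their direction is no independent evidence. Ctrb1 and Mpo are described above, and Pdia3, Ppargc1a, Kcnma1, Itgb1, Slc23a2 and Ptgs2 are described below.

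Among 28 tested regulators and effectors of apoptosis the median was -0.01 and 14 were above 0. Fas, the death receptor, differed by 0.97 ± 0.26 (adjusted p = 0.154), just short of 2-fold, and its ligand Faslg by 0.35 ± 0.27. The mitochondrial gatekeepers Bax, Bak1 and Bcl2 differed by 0.09, 0.01 and -0.11. Gadd45a, which rises with DNA damage, differed by 0.44 ± 0.14 (adjusted p = 0.233), and the ubiquitin ligase gene Mdm2 by -0.33 ± 0.14 (adjusted p = 0.444).

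In the antioxidant list 0 of 23 genes were called (limma, 3 at unadjusted p under 0.05, 0 by the methods' t-test), and the median was -0.03. Catalase (Cat), which breaks down hydrogen peroxide, differed by 0.91 ± 0.31 (adjusted p = 0.303) and by -0.47 with slide as a block, and Keap1, the sensor that holds NRF2 in check, by 0.40 ± 0.13 (adjusted p = 0.294). Peroxiredoxin 1 (Prdx1) differed by -0.46 ± 0.20 (adjusted p = 0.498). The superoxide dismutases Sod1, Sod2 and Sod3 differed by -0.03, 0.01 and 0.33, and the NRF2 targets Nqo1, Gclc, Hmox1 and Txnrd1 by -0.05, 0.02, -0.22 and 0.02. Slc23a2, the vitamin C transporter that the study names, read 4.91, 4.79 and 4.82 with NaHS, 6.11, 5.53 and 5.56 in CS+LPS and 5.22, 4.77 and 7.35 in Control. NaHS and CS+LPS did not overlap, but the difference was not called (-0.90 ± 0.52, adjusted p = 0.679). Slc23a2 was called after quantile normalization (-1.09), and with slide as a block its sign turned to 1.46, also called. Its probe was well above background on 2 of the 3 NaHS arrays. Ptgs2, the inducible cyclooxygenase, read 5.48, 5.55 and 5.86 with NaHS and 3.77, 4.75 and 4.59 in CS+LPS, without overlap, with Control at 2.84 to 6.14, and was not called (1.26 ± 0.71, adjusted p = 0.658). Its probe was well above background on all 3 NaHS arrays and on 1 of the 3 CS+LPS arrays, so the CS+LPS level is largely a background reading. It could be tested only because NaHS or another group was above background, so the calls that follow are no support for a difference. The gene was called at the same difference without Control replicate 1 or Control replicate 3, when the other groups were left out of the fit and by the methods' t-test, and at 3.91 with slide as a block (3.03 with quantile normalization too). It was the highest of 16 prostaglandin and leukotriene genes, of which limma called 0 with 1 at unadjusted p under 0.05, and the methods' t-test called 1.

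Kcnma1 codes for the pore of the BK channel, the large calcium-activated potassium channel that relaxes smooth muscle. It read 9.56, 9.37 and 9.31 with NaHS, 7.27, 7.98 and 8.52 in CS+LPS, 8.91, 9.01 and 9.61 in Control and 9.55, 9.02 and 9.56 with PPG. The CS+LPS rats were the low group and also the most spread. The difference was 1.49 ± 0.30 (adjusted p = 0.0604; 2.14 with slide as a block), called in all 25 alternatives, while its dim second probe differed by 1.01 ± 0.49 and was not called. None of the other 5 tested channel genes was called: the BK beta subunits Kcnmb1, Kcnmb2 and Kcnmb4 differed by -0.07, -0.27 and -0.16, and Kcnj8 and Abcc9, the pore and the sulfonylurea receptor of the vascular ATP-sensitive channel, by -0.18 and 0.37.

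Ppargc1a codes for PGC-1alpha, a coactivator that turns on mitochondrial genes. Its signal was 6.92, 7.13 and 7.14 with NaHS, 6.42, 5.29 and 5.92 in CS+LPS, 6.67, 6.44 and 7.11 in Control and 6.87, 5.95 and 6.55 with PPG, and the difference was 1.18 ± 0.30 (adjusted p = 0.141), 1.74 with slide as a block, and not called without CS+LPS replicate 2 (0.89) or after normexp (0.67). Ppargc1a was the only called gene of 19 in the list of mitochondrial biogenesis and fat oxidation (median -0.01). In this list Tfam, which maintains mitochondrial DNA, differed by -0.08, Nrf1 by -0.09, Esrra by -0.01 and Ppargc1b, the closest relative of Ppargc1a, by 0.53 ± 0.26.

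Chaperones of the endoplasmic reticulum (ER) fold secreted proteins and rise together in the unfolded protein response. Pdia3 and Pdia4, disulfide isomerases of the ER lumen, were called. Pdia3 read 13.62, 13.99 and 13.80 with NaHS, 12.80, 13.13 and 12.08 in CS+LPS, 13.17, 13.43 and 12.36 in Control and 13.35, 13.13 and 13.31 with PPG. Its rise of 1.13 ± 0.30 (adjusted p = 0.154) was 0.19 and not called with slide as a block, and Control replicate 3, on the slide of the CS+LPS arrays, was the lowest Control array. Pdia4 read 10.89, 11.18 and 11.11 with NaHS, 9.96, 10.20 and 9.42 in CS+LPS, 10.21, 10.10 and 10.64 in Control and 10.67, 10.17 and 10.99 with PPG. The Pdia4 difference was 1.20 ± 0.25 (adjusted p = 0.0717), and 1.68 with slide as a block. In both genes CS+LPS replicate 3 was the lowest of its group, and without it Pdia3 differed by 0.83 and Pdia4 by 0.98, each under 2-fold.

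The lumenal and membrane chaperones next to them lay on the same side of 0 below the call: the calnexin gene Canx at 0.87 ± 0.19 (adjusted p = 0.0815), the HSP90 of the ER, Hsp90b1, at 0.84 ± 0.29 (0.303), BiP, the main HSP70 of the ER (Hspa5), at 0.70 ± 0.31 (0.505) and calreticulin (Calr) at 0.47 ± 0.24 (0.589). With slide as a block these 4 differed by 0.21, 0.31, 0.54 and -0.03. The sensors and transcription factors of the response did not lie on that side: Xbp1 differed by -0.34 ± 0.12 (adjusted p = 0.314), Atf4 by -0.18, Ddit3 by -0.11, Eif2ak3 by -0.14 and Atf6 by -0.02. Over the 21 tested members of the list 2 were called, 6 had an unadjusted p under 0.05, 15 were above 0 and the median was 0.18, against -0.02 for all genes. Among all probes, 2051 of 21239 had an unadjusted limma p under 0.05. With slide as a block the list median was 0.05, against -0.04 for all genes, and 1 of the 2 calls was kept.

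The promoters of Pdia4, which was called, and of Canx, Hsp90b1 and Hspa5, the nearest uncalled chaperones, are shown because these genes differed in the same direction. The windows run from 250 bases before to 50 bases after the start of the gene in the RefSeq annotation of GRCr8, 5′ to 3′ on the strand of the gene. Capitals mark matches, on either strand, to the ER stress response element, searched as CCAAT, 9 bases of any kind and CCACG.
Pdia4, chr4:78153142-78153441, minus strand: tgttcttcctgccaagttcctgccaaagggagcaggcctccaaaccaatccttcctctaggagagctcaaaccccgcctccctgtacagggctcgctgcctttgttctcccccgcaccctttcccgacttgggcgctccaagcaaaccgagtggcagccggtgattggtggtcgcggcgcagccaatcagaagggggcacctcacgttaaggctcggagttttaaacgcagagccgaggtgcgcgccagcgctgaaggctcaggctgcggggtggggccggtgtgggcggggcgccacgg
Canx, chr10:35157808-35158107, minus strand: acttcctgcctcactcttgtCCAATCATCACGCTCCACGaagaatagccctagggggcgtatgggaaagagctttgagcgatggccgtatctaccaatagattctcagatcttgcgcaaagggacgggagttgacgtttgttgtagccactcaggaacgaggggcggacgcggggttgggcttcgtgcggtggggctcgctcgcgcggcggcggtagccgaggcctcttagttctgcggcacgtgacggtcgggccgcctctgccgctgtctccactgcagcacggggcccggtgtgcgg
Hsp90b1, chr7:23012244-23012543, minus strand: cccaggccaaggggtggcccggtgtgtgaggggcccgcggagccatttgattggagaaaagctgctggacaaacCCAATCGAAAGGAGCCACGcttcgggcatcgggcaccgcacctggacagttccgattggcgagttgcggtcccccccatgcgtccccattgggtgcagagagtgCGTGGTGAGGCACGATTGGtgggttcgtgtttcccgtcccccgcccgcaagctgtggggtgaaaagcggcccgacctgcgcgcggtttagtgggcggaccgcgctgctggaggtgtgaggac
Hspa5, chr3:38452766-38453065, plus strand: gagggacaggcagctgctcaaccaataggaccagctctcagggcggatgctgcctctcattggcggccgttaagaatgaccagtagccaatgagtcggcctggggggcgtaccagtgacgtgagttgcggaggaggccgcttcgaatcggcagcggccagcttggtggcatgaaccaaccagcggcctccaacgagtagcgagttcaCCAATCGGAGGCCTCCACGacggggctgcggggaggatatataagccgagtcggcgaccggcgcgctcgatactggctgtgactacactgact
Canx and Hspa5 held 1 match each, Hsp90b1 held 2, of which the second is written as its reverse complement, and Pdia4 held 0. Of the 18 members of the ER list with a promoter sequence, 7 held the element (Calr, Canx, Creld2, Dnajc3, Hsp90b1, Hspa5 and Xbp1), against 22 of all 33469 promoters (0.0657%). For the list the first promoter of each gene was counted, and for the total every promoter. The search used sequence alone, so these counts say nothing of a difference with NaHS. The 7 genes with the element differed by between -0.34 (Xbp1) and 0.87 (Canx), and none of them was called. Pdia3, the other called gene of the list, had no promoter sequence and could not be searched.

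Matrix genes set proteases against their inhibitors. Timp3, an inhibitor bound to the matrix, rose: it read 10.90, 12.10 and 11.53 with NaHS and 10.72, 9.32 and 10.02 in CS+LPS, with Control at 11.03 to 11.50 and PPG at 10.42 to 10.79. The lowest NaHS rat and the highest CS+LPS rat were close, and the difference was 1.49 ± 0.36 (adjusted p = 0.114), or 1.02 and not called with slide as a block. Mmp28, an epithelial metalloproteinase also called epilysin, read 5.36, 5.16 and 5.62 with NaHS and 6.64, 6.15 and 7.53 in CS+LPS. Its Control values ran from 3.94 to 6.59, so that its -1.39 ± 0.57 had an adjusted p of 0.438, and with slide as a block it was -3.37 and called. The unadjusted call was lost without CS+LPS replicate 1 (-1.46), CS+LPS replicate 3 (-1.01), NaHS replicate 1 (-1.38) or NaHS replicate 2 (-1.28), and with quantile normalization (-1.52), normexp (-0.72) or the replicate block (-1.39). Of the 15 tested metalloproteinases and inhibitors 1 rose and 1 fell. The macrophage elastase Mmp12 differed by -0.54 ± 0.31, Mmp9 by 0.03, Mmp2 by 0.15, Timp1 by -0.13 and alpha-1 antitrypsin (Serpina1) by -0.22.

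Of 23 genes of elastic fibres and collagens 0 were called (limma, 2 at unadjusted p under 0.05, 0 by the methods' t-test), with 17 above 0 and a median of 0.13. Elastin (Eln) differed by 0.47 ± 0.36, and the cross-linking enzymes Lox and Loxl2 by 0.60 ± 0.32 and 0.64 ± 0.21 (adjusted p = 0.296). Among integrins, the receptors by which cells hold on to matrix, Itga2, the collagen-binding alpha chain, was the only called gene of 18. It read 7.64, 8.47 and 8.08 with NaHS, 6.98, 6.58 and 6.61 in CS+LPS, 6.58 to 7.12 in Control and 7.08 to 8.16 with PPG, and rose by 1.34 ± 0.30 (adjusted p = 0.0876; called in all 25 alternatives). Its partner chain is Itgb1, which the study lists as higher with NaHS. The brightest Itgb1 probe showed no clear difference (-0.07 ± 0.19), and NaHS and CS+LPS overlapped on it. On the dimmer Itgb1 probe NaHS was higher by 1.00 ± 0.24 (limma adjusted p = 0.113), without overlap. This fell just under 2-fold, and the dimmer probe was called after quantile normalization (1.03). With slide as a block the brightest probe differed by -0.85 (not called) and the dimmer by 1.56 (called). A rise of Itgb1, the direction that the study reports, was thus seen only on the dimmer probe.

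In vessels the signal was narrow. Cdh5, the cadherin of endothelial junctions, read 10.91, 11.29 and 11.47 with NaHS and 9.80, 9.40 and 10.11 in CS+LPS, with no overlap (1.45 ± 0.29, adjusted p = 0.0604; 1.03 and not called with slide as a block). Control lay at 9.87 to 10.56 and PPG at 9.82 to 10.77, so the NaHS values were the highest of the 4 groups. Cdh5 was the only one of 7 tested endothelial markers that was called, and the median of the 7 was 0.08; Kdr, the VEGF receptor, differed by 0.02 and Tek, the angiopoietin receptor, by 0.49 ± 0.16. Calca codes for calcitonin and the vasodilator peptide CGRP. Its signal was 7.43, 8.36 and 7.48 with NaHS, 6.98, 6.73 and 6.35 in CS+LPS and 8.58, 8.49 and 9.54 in Control. The NaHS values lay between those of CS+LPS and Control, 1.07 ± 0.37 above CS+LPS (adjusted p = 0.303), and 2.08 above with slide as a block. The call was lost without CS+LPS replicate 3 (0.90) or NaHS replicate 2 (0.77), and after quantile normalization (0.92) or normexp (0.84). Its second probe differed by 0.26. Of 25 genes of vascular tone and angiogenesis only Calca was called; its receptor Calcrl differed by 0.50 ± 0.22 (adjusted p = 0.491), endothelin 1 (Edn1) by 0.27, Vegfa by -0.13 and Nos3 by -0.22.

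The airway secretory list had the highest median of the 25 lists plotted, 0.60, which was 1.71 with slide as a block. In this list 9 of 11 genes were above 0 and 0 were called (limma, 1 at unadjusted p under 0.05, 0 by the methods' t-test). That 1 gene was Pigr, the receptor that carries IgA into the airway, at 0.89 ± 0.22 (adjusted p = 0.122). The wide-ranging members had large errors: Bpifa1, a secreted defence protein, differed by 1.74 ± 1.66, Muc5b by 1.36 ± 0.74, Clca1 by 0.96 ± 1.56 and Scgb3a1 by 0.93 ± 0.80, while Scgb1a1 differed by 0.07. Proliferation genes had the lowest median, -0.22, which was -0.70 with slide as a block. Of these genes 3 of 18 were above 0 and 0 were called (limma, 0 at unadjusted p under 0.05, 0 by the methods' t-test). Rrm2 of nucleotide synthesis differed by -0.55 ± 0.30, Pcna by -0.30 ± 0.20 and Cdk1 by -0.23 ± 0.36.

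Of the genes that make and break down H2S, 0 of 10 tested were called (limma, 0 at unadjusted p under 0.05, 0 by the methods' t-test), and the median was 0.01. With slide as a block the list median was -0.65, against -0.04 for all genes. With 1.5% of all genes called higher and 0.194% lower, 0 calls are near the background for a list of this size. Cth differed by -0.03 ± 0.45, Cbs by -0.24 ± 0.43, Mpst by 0.23 ± 0.25 and Sqor by 0.16 ± 0.20. Ethe1, the next enzyme of oxidation after Sqor, differed by -0.30 ± 0.33 and Cdo1, which draws cysteine towards taurine, by 0.73 ± 0.46. No genes were called either among interferon-stimulated genes (0 of 20 called, 1 at unadjusted p under 0.05), immediate early genes (0 of 19, 2), circadian clock genes (0 of 15, 0), heat shock and cytosolic chaperones (0 of 15, 1), glucocorticoid response genes (0 of 12, 0), MHC class II and processing genes (0 of 9, 1) and aryl hydrocarbon receptor targets (0 of 7, 1), with 0 called by the methods' t-test in each of these 7 lists and medians from -0.14 to 0.08. With slide as a block these 7 medians ran from -0.90 (MHC class II and processing) to 0.94 (circadian clock). Here too 0 calls are near the background.

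A group noticed after the values were seen was that of the olfactory and vomeronasal receptors, G protein-coupled receptors of sensory cells of the nose. Of 119 tested, 20 were higher, 0 were lower and 11 had an adjusted p under 0.05, against a background of 1.5% higher among all genes. In the dimmest bin of genes 127 of 2833 were higher. The median of the receptors was 0.35, 40 had an unadjusted limma p under 0.05 (2051 of 21239 among all probes) and 18 were called by the methods' t-test. Among the 20, Or10ag57, Vom1r28, Or10a5, Or4k42b and Or8c18 were well above background on every NaHS array and on no CS+LPS array. They could be tested only because NaHS or another group was above background, so their calls are no support for a difference. Without a slide term Vom1r28 differed by 1.72 and Or4k42b by 1.53. With slide as a block Vom1r28 (0.88), Or4k42b (0.49) and Or10ag57 (-0.20) were not called. Or4f14d read 7.86, 7.81 and 7.67 with NaHS and 6.30, 6.42 and 6.32 in CS+LPS (1.43 ± 0.12, adjusted p = 0.00103), Vom1r54 rose by 1.87 ± 0.18, Or51i2 by 1.68 ± 0.20, Or4c122 by 1.26 ± 0.14 and Vom2r35 by 1.13 ± 0.12. Vom2r35 was not called with slide as a block (0.88), after quantile normalization (0.99) or after normexp (0.74), and Vom1r54 (0.97) and Or4c122 (0.55) were not called after normexp. With quantile normalization and slide as a block together, Or4c122 (0.28) and Vom2r35 (0.39) were not called. The same receptors differed between NaHS and PPG, within slide 1, by a median of 0.02. After quantile normalization their median was 0.20 with 13 called. With slide as a block it was 0.75, and 11 of the 20 receptors called without it were called in the same direction. Their part in the brightness pattern described above was not tested.

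Some probes were well above background on all arrays of 1 group and on none of the other, and their differences are given as bounds. They could be tested only because 1 group was above background, so their adjusted p-values, in brackets, describe the fit and are no support for the difference. LOC685994 was at least 5.41-fold higher with NaHS (limma adjusted p = 0.00266), Or10ag57 at least 3.89-fold (0.140) and Prl5a2, a gene of the prolactin family, at least 3.69-fold (0.133). In the other direction Tigd3 was at least 2.04-fold lower with NaHS (0.556), Smim13 at least 1.86-fold (0.0814) and Tceal7 at least 1.60-fold (0.631), none of which was called. For Or10ag57, Tigd3 and Smim13 the signals of the dimmer group were used as they were. Their bounds therefore equal the fitted folds and are no lower limits. With slide as a block the log2 differences of Or10ag57 (-0.20) and Tigd3 (0.33) turned sign. The mean signals of these 6 genes lay between 3.26 and 5.99 in both groups.

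Since the NaHS and PPG arrays lay on the same slide, their difference holds no slide effect, and it shares the NaHS arrays with the comparison above. Here 78 of 11331 genes were called, a background of 0.688%, and 0 probes passed an adjusted p of 0.05 by limma (110 probes called, 1847 at unadjusted p under 0.05, 66 called and 0 adjusted by the methods' t-test). For the genes described above, NaHS minus PPG and NaHS minus CS+LPS were 1.01 and 2.39 for Ctrb1, -0.07 and 2.15 for Tmprss6, 0.03 and 1.49 for Kcnma1, -0.16 and 1.54 for Mpo, -0.87 and -1.59 for Cxcl3, and 1.04 and 1.45 for Cdh5. Of these differences from PPG, those of Ctrb1 and Cdh5 were called. In Tmprss6, Kcnma1 and Mpo, NaHS and PPG differed by less than the standard errors of 0.17, 0.30 and 0.28, and the values of both groups lay above those of CS+LPS.

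Other genes were called between NaHS and PPG, and those that follow were picked after their values were seen. Elastin (Eln) read 14.07, 13.98 and 14.30 with NaHS, 11.26, 11.99 and 11.69 with PPG and 12.79, 14.22 and 13.94 in CS+LPS. NaHS was thus above PPG by 2.47 ± 0.36 and within the spread of CS+LPS (0.47 ± 0.36), and Lox had the same order, at 1.65 and 0.60. Npas2, a clock gene, was 2.06 above PPG and 0.19 above CS+LPS. RT1-CE10, an MHC class I gene, was 3.71 ± 1.37 above PPG and 0.24 above CS+LPS, and read 9.91, 5.41 and 5.66 in the PPG rats, so 1 of them was near the NaHS rats. In the other direction Bpifa1 differed by -4.45 from PPG and by 1.74 from CS+LPS, the bright MHC class I genes Rt1.aa by -1.59 and 0.13 and RT1-CE16 by -1.33 and 0.12, the interferon-induced chemokine Cxcl10 by -1.31 and 0.02, and the interferon-induced modifier Isg15 by -1.24 and 0.08. MHC class I genes have near-identical copies that can share a probe, so their values are uncertain. Of 7 tested fat markers 3 were called, all lower with NaHS than with PPG (Adipoq by -5.45, Thrsp by -3.10 and Car3 by -2.93), and the summed fat signal was 12.46 to 12.94 with NaHS and 13.28 to 13.85 with PPG. Adipoq was well above background on only 1 NaHS array, so its NaHS level is largely a background reading. It could be tested only because another group was above background, so its call is no support for a difference. Of 6 tested heart muscle markers 0 were called (limma, 0 at unadjusted p under 0.05), and their summed signals of 13.35 to 15.80 with NaHS and 15.37 to 16.17 with PPG overlapped. The part of the fat markers in these values was not tested.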

How the data were processed

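Lung RNA of 12 rats in 4 groups of 3 was hybridized to single-colour Agilent arrays. The authors deposited Feature Extraction 10.7.3.1 output for each array, and its processed signal is a linear intensity from which the scanner software had subtracted background. They also deposited lists of differing probes made in GeneSpring. These lists hold fold changes, p-values and signals per rat, of which 120 columns of per-sample values were not used, and gave only symbols and probe positions here. The build of the array design per the file headers is rn4.

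Log2 of the processed signal was aligned between arrays at the 75th percentile. Outlier spots were dropped, except that 35 values with nothing but outlier spots kept their mean, and replicate spots of a probe were averaged. Of 30367 probes, 21239 were tested, each well above background throughout at least 1 group of 3 arrays. Symbols came from RefSeq accessions (GRCr8, names only; 17514 probes) or the lists (194), and 12659 probes had none. The brightest tested probe stands for a gene. The number of arrays limits the precision.

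The linear model of limma 3.58.1 in R 4.3.3 (and data.table, version 1.17.8) was fitted to 4 group means over the 12 arrays. A call needed both a 2-fold difference and a two-sided p under 0.05 before adjustment. Benjamini-Hochberg adjusted values over all tested probes are given apart. Values after ± are standard errors of the fit unless marked SD. An exact permutation test of 3 against 3 cannot go below p = 0.1. The labels number the samples within a group and say no more of their origin, so p-values measure the spread between these samples. The scripts were tested on simulated data.

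Named genes were the 10 largest rises and falls among calls above background on 6 arrays without overlap, the 10 smallest adjusted p-values, the largest calls that held with slide as a block, the genes the study names, and called members of 28 gene lists and 19 marker lists. A few genes that the rule selects are not reported here. Members and lists were chosen with earlier results of these data known. Alternatives were quantile normalization, 75th percentiles over other probes or spots, normexp with an offset of 50, outlier spots kept, 3 other filters, slide or replicate number as a block, a fit of only the compared groups, the methods' t-test and leaving out each array. Where a probe was below background in a group, the bound sets the mean of the brighter group against the lowest signal well above background on each array of the other, or the probe's own signal where that was higher.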

Additional observations from a re-analysis of the deposited data

How the results depend on the processing

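NaHS against CS+LPS gave 363 called probes. There were 100 with normexp (run on the median spot signal, since the mean is not among the columns used), 191 with the filter on all 12 arrays, 567 with the filter on at least 1 array, 656 with no filter, 4220 with slide as a block (74.3% higher) and 4123 with quantile normalization and slide as a block (49.7% higher), a setting chosen after seeing the data, as was the percentile over spots. Leaving out each array gave 333 to 449. The 127 probes with an adjusted p under 0.05 became 48 after quantile normalization, 49 with normexp, 70 with no filter, 4889 with slide as a block, 5187 with quantile normalization and slide as a block, 216 with only the 2 groups compared and 1 by the methods' t-test (293 called), and 30 to 397 without single arrays (30 without NaHS replicate 2, 397 without Control replicate 3). The share of higher calls was 87.6%, and 74.4% after quantile normalization. The replicate block gave 364 called and 52 adjusted probes. Same-numbered arrays did not deviate together (r = -0.13, -0.01 and 0.05), so the numbers did not pair the samples.

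NaHS against PPG gave 110 called probes, 59 with normexp, 228 with the filter on at least 1 array, 278 with no filter, 66 by the methods' t-test and 107 to 163 without single arrays. Its 0 adjusted probes became 1 without PPG replicate 3 and remained 0 otherwise.

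The sign turned for Cd300lg (-0.89 with slide as a block, -1.35 with quantile normalization too), Mpo (-0.57 with both) and Slc23a2 (1.46 with slide as a block). Over the named genes and alternatives, 822 values kept their side of the call and direction, 63 lost the call, 7 gained it and 4 turned. The cause was not tested.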
